A study of Mus musculus with 6 samples.

Results

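Genes of the surface-marker panel of mesenchymal stromal cells (MSCs) were examined in cultured lung MSCs (LMSCs) of mice with mammary tumors. The 10 genes, chosen by name, were Cd44, Nes, Ly6a, Cd34, Thy1, Nt5e, Eng, Alcam, Vcam1 and Mcam, and all 10 were found among the 34745 genes listed. All cells came from MMTV-PyMT mice, in which the mouse mammary tumor virus promoter, active mainly in mammary epithelium, drives the polyoma middle T antigen, so that the stromal cells themselves were not the intended site of the transgene. A-LMSCs (adenoma stage, called E-LMSCs in the labels) came from mice of 6 to 7 weeks, PM-LMSCs (pre-metastatic stage, called L-LMSCs) from mice of 9 to 10 weeks and M-LMSCs (metastatic stage) from mice of 13 to 14 weeks. These are the ages in the labels, and the text of the study gives slightly older ages for the first and the second stage. Adherent cells were depleted of CD45+ cells with magnetic beads and grown to passage 3, and 2 libraries per stage were analyzed, for 6 in all. Tumor-free controls were not analysed here, and stage and age of the mice cannot be told apart. The labels number the libraries of a stage without naming animals, while the study counts its sequenced replicates as mice, and p-values measure the spread between the libraries of a stage.

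MSCs have no single defining gene, and they are recognized by a set of adhesion molecules, enzymes and receptors at the cell surface together with the absence of blood and endothelial markers. Cd44 encodes the hyaluronan receptor, Thy1 (CD90) and Ly6a (Sca1) encode small proteins held in the membrane by a lipid anchor, and Nt5e (CD73) encodes the enzyme that turns extracellular AMP into adenosine. Eng (endoglin, CD105) is a coreceptor for ligands of the TGF-beta family, and Alcam (CD166), Vcam1 (CD106) and Mcam (CD146) are adhesion molecules of the immunoglobulin superfamily. Nes encodes nestin, an intermediate filament protein of progenitor cells that lies inside the cell and is used as an MSC marker, and Cd34 encodes a sialomucin of hematopoietic progenitors, endothelium and some fibroblasts. The study described its cultured LMSCs as negative for CD34 protein and low for Sca1, so Cd34 is not a positive marker of these cells.

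RNA levels are given as FPKM, a fragment count divided by gene length and library total, so that levels of different genes can be compared per length. The depth of the libraries, estimated from the spacing of the lowest values, was about 20800000 and 17500000 fragments in A-LMSCs, 14800000 and 15900000 in PM-LMSCs, and 16500000 and 16600000 in M-LMSCs. On the mean of the 6 libraries, the levels fell into an upper, a middle and a lower group. Thy1 was highest at 27.0 ± 5.21 FPKM (SD, n = 6), followed by Eng at 22.5 ± 2.65 FPKM (SD, n = 6) and Nes at 20.4 ± 3.64 FPKM (SD, n = 6). Cd44 was at 14.0 ± 1.18 FPKM (SD, n = 6), Vcam1 at 12.7 ± 3.02 FPKM (SD, n = 6), Mcam at 11.5 ± 2.78 FPKM (SD, n = 6) and Alcam at 8.52 ± 1.37 FPKM (SD, n = 6). Ly6a, at 3.35 ± 1.44 FPKM (SD, n = 6), and Nt5e, at 2.71 ± 0.674 FPKM (SD, n = 6), lay lower, and Cd34 was lowest at 0.941 ± 0.778 FPKM (SD, n = 6). Neighbors in this order had overlapping ranges over the 6 libraries in every case but one, the step from Alcam to Ly6a. Within a library, however, Thy1 lay above Eng in 6 of 6 libraries, Nes above Cd44 in 6 of 6 and Mcam above Alcam in 6 of 6, whereas Vcam1 lay above Mcam in 3 of 6 and Ly6a above Nt5e in 3 of 6. Among the 10279 genes that averaged 1 FPKM or more, Thy1 stood at the 83.3rd percentile, Cd44 at the 70.6th, Ly6a at the 30.6th and Nt5e at the 24.6th. Cd34 did not reach that mean, which left 9 of the 10 genes in the tests.

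**Figure D1:**
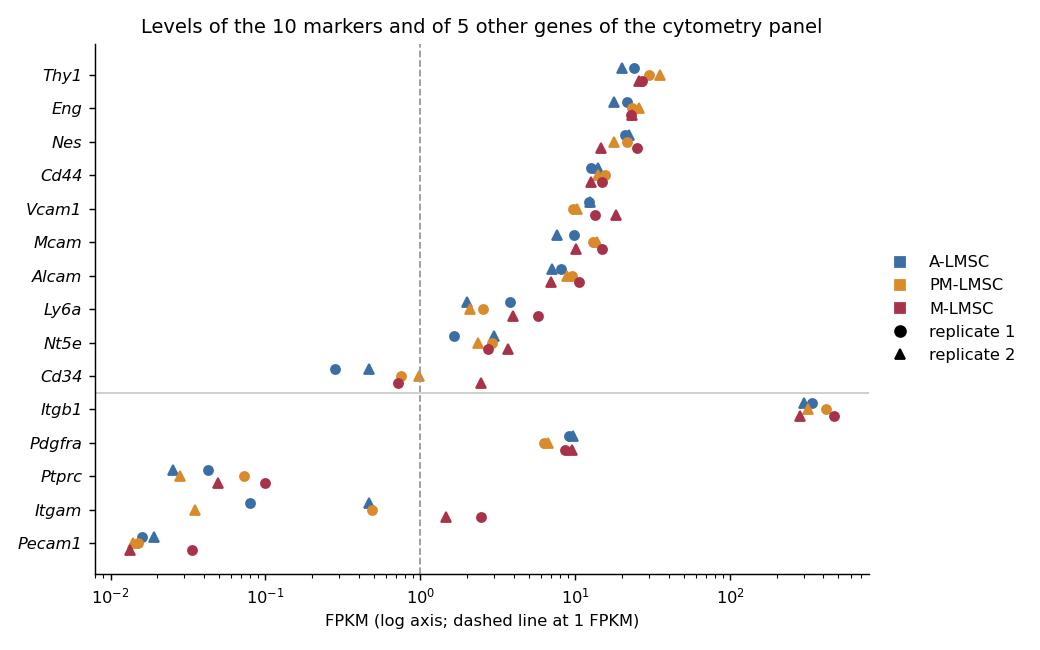
RNA level (FPKM, log axis) of the 10 surface markers, in order of mean level, and below the line of 5 other genes whose proteins the cytometry panel covered, with 1 point per library (color for stage, circle for replicate 1, triangle for replicate 2). The markers from Thy1 to Alcam lie between 7.01 and 35.3 FPKM, Ly6a and Nt5e between 1.66 and 5.74 FPKM, and Ptprc and Pecam1 below 0.1 FPKM in every library.

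The labelled cell type was checked against genes of the surface profile that the study examined by flow cytometry. Itgb1 (CD29), the beta1 integrin chain, was at 335 and 301 FPKM at stage A, 418 and 316 at stage PM, and 466 and 283 at stage M. Pdgfra (CD140a), a growth factor receptor of fibroblasts, was lower, at 9.11, 9.67, 6.31, 6.69, 8.60 and 9.50 FPKM, in the same order. Both genes were thus present in every library, with Itgb1 far above Cd44. The study described CD140a protein on these cells as low. Ptprc (CD45), the common leukocyte antigen, lay between 0.0254 and 0.0987 FPKM in the 6 libraries, and Pecam1 (CD31), an endothelial adhesion molecule, between 0.0134 and 0.0337 FPKM. Itgam (CD11b), a myeloid integrin chain listed under 2 identifiers, was on the first of them at 0.0799 and 0.468 FPKM at stage A, 0.488 and 0.0349 at stage PM, and 2.45 and 1.46 at stage M. The most abundant RNA of every library was Acta2, smooth muscle actin, at 4986 to 6311 FPKM, and all 15 genes of a fibroblast list reached a mean of 1 FPKM, led by Col1a1. In the comparisons described below, 0 of these 15 were called (2, 6 and 5 at an unadjusted p under 0.05), and with a replicate block 3 were called higher in M-LMSCs against A-LMSCs. Over all genes tested, 6.53%, 14.6% and 8.94% had an unadjusted p under 0.05. With the block 3.92% were called in M-LMSCs against A-LMSCs. Of 13 endothelial genes, 3 reached that mean, and the list summed to 4.78 and 5.60 FPKM at stage A, 7.18 and 7.44 at stage PM, and 6.84 and 7.35 at stage M. Its most abundant gene was Flt1, at 33.0% of the sum, and 0 of the 3 were called in any comparison (1 in each at an unadjusted p under 0.05, and 1 called higher in M-LMSCs against A-LMSCs with the block).

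For 7 of the 10 genes (all but Thy1, Ly6a and Vcam1) the RefSeq table holds the bases before the transcription start, and those of the highest genes with an entry, Eng and Nes, and of the lowest, Cd34, are shown here to set the promoters of abundant and scarce markers side by side. Each window holds 250 bases upstream of the RefSeq start in build GRCm38.p6, 5′ to 3′ on the gene's own plus strand, with CpG dinucleotides in capitals.
Eng, chr2:32646345-32646594: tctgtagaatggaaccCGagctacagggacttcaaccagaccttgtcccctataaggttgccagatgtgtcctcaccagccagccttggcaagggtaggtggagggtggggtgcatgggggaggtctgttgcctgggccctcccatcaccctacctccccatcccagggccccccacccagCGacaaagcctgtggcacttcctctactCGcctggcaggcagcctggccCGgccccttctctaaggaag
Nes, chr3:87970843-87971092: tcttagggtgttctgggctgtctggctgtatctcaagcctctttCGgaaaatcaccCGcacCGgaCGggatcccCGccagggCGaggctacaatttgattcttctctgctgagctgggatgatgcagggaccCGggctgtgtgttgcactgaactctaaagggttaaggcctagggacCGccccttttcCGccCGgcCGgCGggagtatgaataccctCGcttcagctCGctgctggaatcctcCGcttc
Cd34, chr1:194938571-194938820: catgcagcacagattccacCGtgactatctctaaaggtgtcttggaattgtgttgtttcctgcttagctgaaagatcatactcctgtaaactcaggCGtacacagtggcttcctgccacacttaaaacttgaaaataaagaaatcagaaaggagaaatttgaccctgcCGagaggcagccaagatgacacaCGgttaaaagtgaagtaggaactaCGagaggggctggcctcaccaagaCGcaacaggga
The window of Eng holds 4 CpG, that of Nes 15 and that of Cd34 6, against a median of 6 over the 32851 windows of the table. CpG content thus did not follow the order of the RNA levels among these genes, since the window of Nt5e, which was expressed at a much lower level than Eng and Cd44, holds 21, and that of Cd44 holds 5. The letters GGGCGG (the GC box, searched on both strands) occurred 2 times in the window of Nes, 5 times in that of Mcam, 4 times in that of Nt5e and 2 times in that of Alcam, and 0 times in those of Eng, Cd44 and Cd34, and 32.7% of all windows hold it. The letters TATAAA, searched on both strands, occurred in 0 of the 7 windows and in 12.4% of all windows. A match of letters is a description of the window and not a binding site.

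To ask whether RNA of the markers shifted with tumor stage, the 3 stages were compared by limma on log2(FPKM + 1), with p-values adjusted by the Benjamini-Hochberg method over the 10279 genes tested. RNA does not measure protein at the surface, where the study found the marker pattern alike at all stages. The added 1 FPKM shrinks the fold change of scarce genes. At an adjusted p under 0.05, 0 of the 9 tested markers were called between PM-LMSCs and A-LMSCs, 0 between M-LMSCs and A-LMSCs, and 0 between M-LMSCs and PM-LMSCs, against 0.0389%, 0.0681% and 0.0292% of all genes tested. With the replicate number as a block these backgrounds were 0.292%, 3.92% and 0.418%, and the number of markers called was 0 in each comparison. The labels do not say that libraries of the same number belong together, so results with the block rest on that assumption. At an unadjusted p under 0.05, limma gave 3 of the 9 markers for PM-LMSCs against A-LMSCs (Thy1, Eng and Mcam, against 6.53% of all genes), 0 for M-LMSCs against A-LMSCs (14.6% of all genes) and 2 for M-LMSCs against PM-LMSCs (Ly6a and Vcam1, against 8.94% of all genes). With the block these counts were 3 (Thy1, Eng and Mcam), 3 (Ly6a, Vcam1 and Mcam) and 2 (Ly6a and Vcam1), against 13.8%, 24.3% and 16.0% of all genes. The median log2 fold change of the 9 markers was 0.15, 0.26 and -0.09 in the 3 comparisons, beside medians of 0.01, 0.03 and 0.00 over all genes tested. A-LMSCs enter the first and the second of these comparisons, so their values are not independent of each other.

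**Figure D2:**
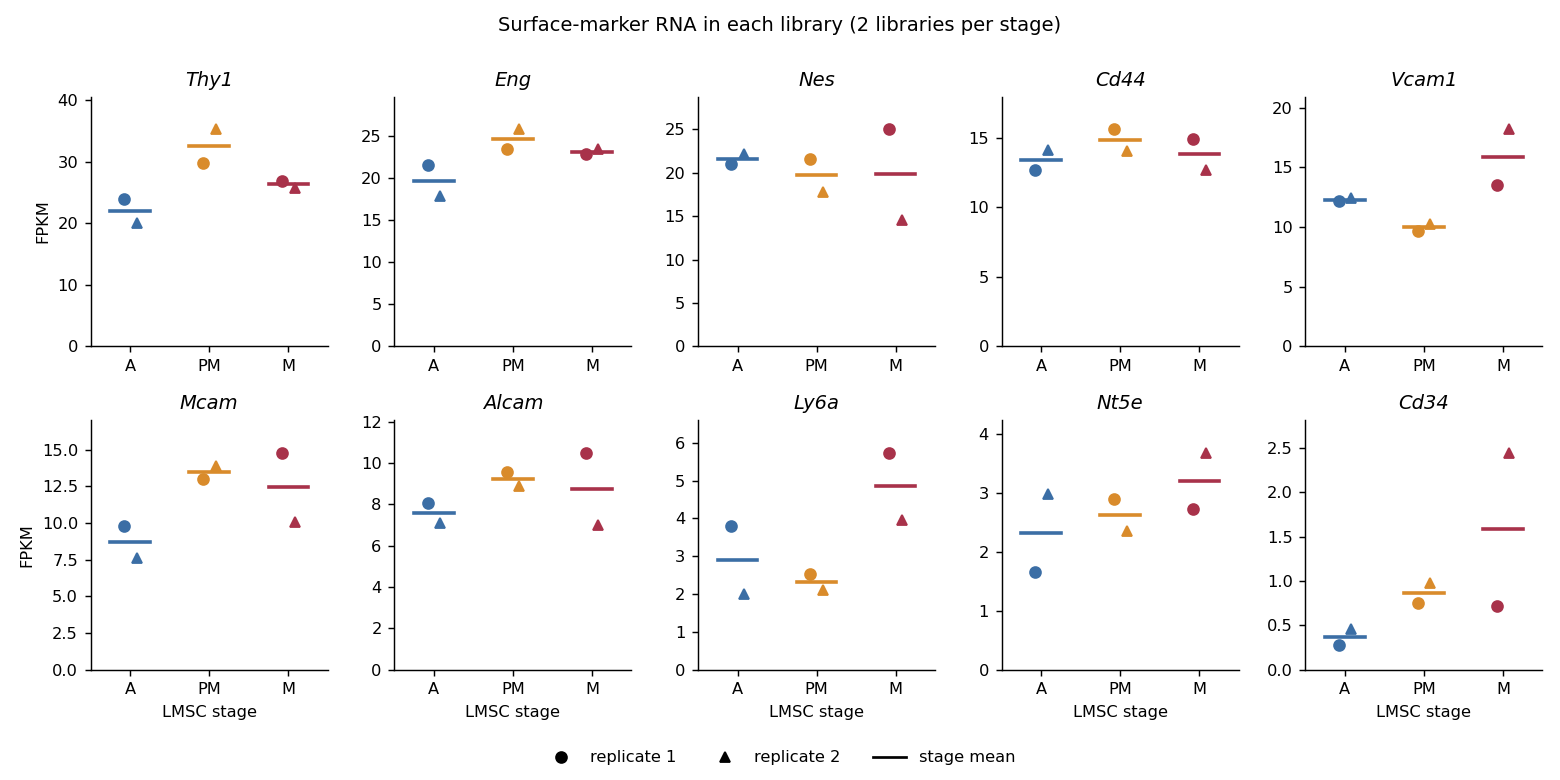
FPKM (linear axis from 0) of each of the 10 markers in A-, PM- and M-LMSCs, with circles for replicate 1, triangles for replicate 2 and a line at the stage mean (n = 2). The stages do not overlap for Thy1, Eng and Vcam1, while for Nes the M-LMSC libraries, at 25 and 14.6 FPKM, lie on either side of all others.

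Thy1, Eng, Mcam and Alcam lay above both A-LMSC libraries in both PM-LMSC libraries, a pattern that 19.6% of all tested genes showed. In M-LMSCs 5 of the 9 (Thy1, Eng, Mcam, Vcam1 and Ly6a) lay above both A-LMSC libraries, against 27.1% of all tested genes, and 0 lay below both, against 24.4%. Thy1 (ENSMUSG00000032011, GRCm38 chromosome 9 from 44043384 to 44048579, plus strand), a glycoprotein that binds integrins on neighboring cells, was at 24.0 and 20.0 FPKM at stage A, 29.8 and 35.3 at stage PM, and 26.9 and 25.8 at stage M. The PM-LMSC libraries were highest and the A-LMSC libraries lowest, with no overlap between any of the stages. Stages without overlap were seen in 3 of the 9 tested markers (Thy1, Eng and Vcam1) and in 10.9% of all genes. The mean of Thy1 in PM-LMSCs was 1.48 times that in A-LMSCs (log2 fold change 0.54, standard error 0.14, 95% interval 0.22 to 0.87, adjusted p = 0.449 from limma). In M-LMSCs it was 1.20 times (0.26, interval -0.07 to 0.58, adjusted p = 0.425 from limma). Of the 9 tested markers Thy1 had the smallest unadjusted p in the first comparison, where it ranked 139th among all genes.

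Eng (ENSMUSG00000026814, chromosome 2 from 32646595 to 32682669, plus strand) had the same order of stages in a narrower span. It was at 21.5 and 17.9 FPKM at stage A, 23.4 and 25.8 at stage PM, and 22.9 and 23.4 at stage M. The lowest PM-LMSC library and the highest M-LMSC library were close to equal, so that the separation of these stages was slight. The log2 fold change was 0.31 in PM-LMSCs (standard error 0.13, interval 0.01 to 0.61, adjusted p = 0.748 from limma), and 0.22 at stage M (interval -0.08 to 0.53, adjusted p = 0.446 from limma). Without A-LMSC replicate 2 the former was 0.18. The order PM above M above A without overlap held for 2 of the 9 tested markers, Thy1 and Eng, and for 0.953% of all genes. Exons of Eng overlap those of Fpgs on the opposite strand by 61 bases, as do those of Vcam1 with Gm43109 (61 bases) and of Mcam with Gm10687 (17 bases), and whether strand was used in counting is not given in the sources used here.

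Mcam (ENSMUSG00000032135, chromosome 9 from 44134469 to 44142727, plus strand), an adhesion molecule of pericytes and endothelium, was at 9.79 and 7.63 FPKM at stage A, 13.0 and 13.9 at stage PM, and 14.8 and 10.1 at stage M. Both A-LMSC libraries were the lowest of the 6 (a pattern not counted over all genes), and the M-LMSC libraries spanned those of PM-LMSCs. Its ratio to A-LMSCs was 1.54 in PM-LMSCs (log2 fold change 0.58, standard error 0.20, interval 0.11 to 1.05, adjusted p = 0.612 from limma), and 1.43 at stage M (0.46, interval -0.01 to 0.92, adjusted p = 0.352 from limma). The latter log2 fold change was 0.20 without M-LMSC replicate 1, 0.71 without M-LMSC replicate 2 and 0.29 without A-LMSC replicate 2. Alcam (ENSMUSG00000022636, chromosome 16 from 52248996 to 52454074, minus strand), a ligand of CD6 on T cells, was at 8.08 and 7.11 FPKM at stage A, 9.56 and 8.87 at stage PM, and 10.5 and 7.01 at stage M. The M-LMSC libraries held both the highest and the lowest value of Alcam. Its log2 fold change was 0.25 in PM-LMSCs (interval -0.19 to 0.69) and 0.16 in M-LMSCs (interval -0.28 to 0.60). Endothelial cells also express Eng and Mcam, and the endothelial sum was likewise above its A-LMSC mean at the later stages, 1.41 times in PM-LMSCs and 1.37 times in M-LMSCs, with Pecam1 at 0.0337 FPKM or less. Within that list the 3 tested genes, Kdr, Esam and Flt1, had log2 fold changes against A-LMSCs of 0.15, 0.81 and 0.23 in PM-LMSCs. At stage M these were 0.61, 0.32 and 0.10. Cdh5, too low to test, was at 0.265 and 0.229 FPKM at stage A, 0.153 and 0.0632 at stage PM, and 0.227 and 0.0605 at stage M. The mesothelial sum described with Cd34 was 2.39 times its A-LMSC mean in PM-LMSCs and 2.35 times in M-LMSCs, where it was 1.36 times in replicate 1 and 3.33 times in replicate 2. The part of endothelial or mesothelial cells in the levels of Thy1, Eng, Mcam and Alcam was not tested.

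**Figure D3:**
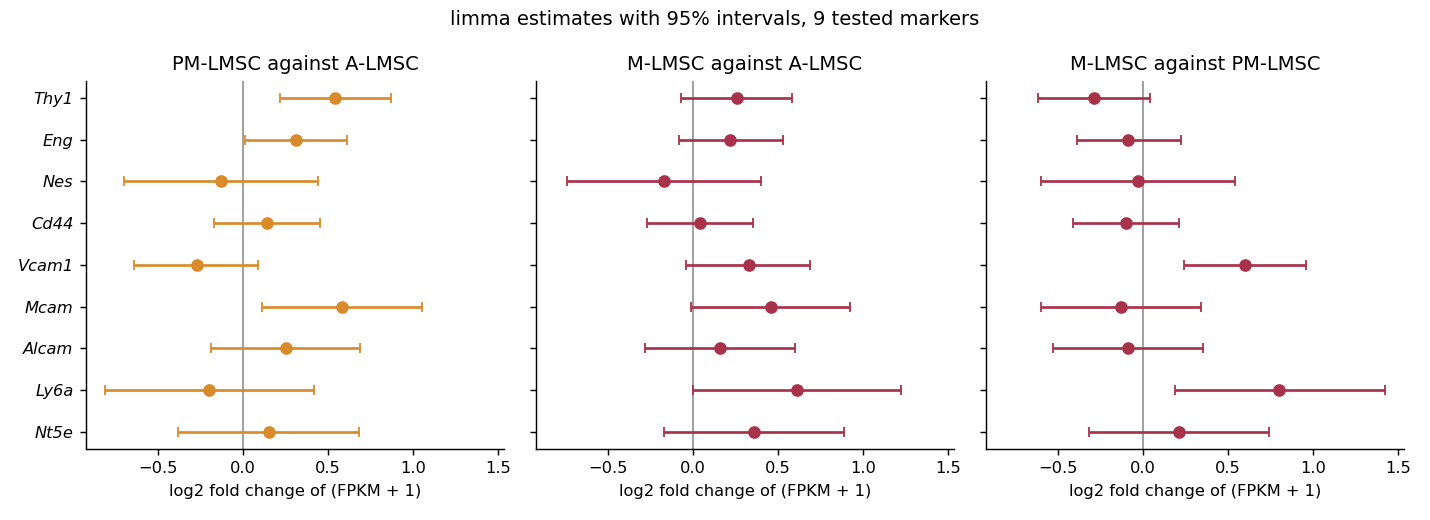
limma's log2 fold change of FPKM + 1 (points) with its 95% interval (bars, not adjusted for the number of genes) for the 9 tested markers in the 3 comparisons of stages. In PM-LMSCs against A-LMSCs the intervals of Thy1, Eng and Mcam lie above 0, in M-LMSCs against A-LMSCs none lies wholly on one side of 0, and in M-LMSCs against PM-LMSCs those of Ly6a and Vcam1 lie above 0, although 0 markers pass the adjusted threshold.

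Vcam1 and Ly6a were higher in both M-LMSC libraries than in both PM-LMSC libraries, a pattern that 17.8% of all tested genes showed, whereas 2 (Thy1 and Eng) were lower, as were 16.7% of all tested genes. Vcam1 (ENSMUSG00000027962, chromosome 3 from 116109949 to 116129688, minus strand), the endothelial and stromal ligand of alpha4 integrins on leukocytes, was at 12.2 and 12.4 FPKM at stage A, 9.69 and 10.3 at stage PM, and 13.5 and 18.2 at stage M. The A-LMSC libraries lay close together, the PM-LMSC libraries below both and the M-LMSC libraries above both, with no overlap of the stages. Of the 9 markers only Vcam1 lay below A-LMSCs in both PM-LMSC libraries, which 19.7% of all tested genes did. The order M above A above PM without overlap held for 1 of the 9 tested markers, Vcam1, and for 1.78% of all genes. The mean in M-LMSCs was 1.58 times that in PM-LMSCs (log2 fold change 0.60, standard error 0.15, interval 0.24 to 0.96, adjusted p = 0.342 from limma). Against A-LMSCs the log2 fold change was -0.27 in PM-LMSCs (interval -0.64 to 0.09, adjusted p = 0.840 from limma, and -0.44 with the block and a correction for GC content and length), and 0.33 at stage M (interval -0.04 to 0.69, adjusted p = 0.375 from limma, and 0.18 with that correction).

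Ly6a (ENSMUSG00000075602, chromosome 15 from 74994877 to 74998031, minus strand), the Sca1 antigen by which the study gated LMSCs in lung tissue, was at 3.81 and 1.99 FPKM at stage A, 2.53 and 2.10 at stage PM, and 5.74 and 3.95 at stage M. Both M-LMSC libraries were highest, as in 11.8% of all tested genes, and the A-LMSC libraries spanned those of PM-LMSCs. Replicate 1 lay above replicate 2 at each of the 3 stages, which held for 26.0% of all tested genes. The mean in M-LMSCs was 2.09 times that in PM-LMSCs (log2 fold change 0.80, standard error 0.26, interval 0.19 to 1.42, adjusted p = 0.428 from limma, and 0.0706 with the replicate block). Against A-LMSCs it was 1.67 times (0.61, interval 0.00 to 1.22, adjusted p = 0.343 from limma, and 0.0621 with the block), and in PM-LMSCs it was 0.798 times that in A-LMSCs (-0.20, interval -0.81 to 0.42). The log2 fold change of M-LMSCs against A-LMSCs was 0.95 without A-LMSC replicate 1, 0.26 without A-LMSC replicate 2 and 0.38 without M-LMSC replicate 1. On its longest annotated transcript of 955 bases these values rested on about 32 to 91 fragments per library, against about 1483 to 2679 for Nes, so that its relative counting error is larger. If FPKM used all exons of Ly6a, 1205 bases, its number was somewhat larger. Ly6g, Ly6f, Ly6c1, Ly6c2 and Ly6i match its transcripts at 82.3% to 85.9% identity, below the 95% taken here as a near-identical copy. Likeness of pattern was measured for Ly6a alone, since no other tested marker spanned at least 1 on the log2 scale over the 6 libraries. The tested genes nearest to its centered log2 values were Adam23 (root mean square difference 0.05), Aoc3 (0.15) and Gm9830 (0.16), against a median of 0.44 over all genes tested.

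Markers of other cells also differed between these libraries. Of 14 hematopoietic genes, which should be absent after depletion of CD45+ cells, 9 were tested and all 9 were highest in both M-LMSC libraries, against 11.8% of all tested genes, and the sum of the 14 was 147 and 137 FPKM at stage A, 188 and 86.8 at stage PM, and 447 and 321 at stage M. Lyz2, the lysozyme of macrophages and also of some epithelia, made up 78.4% of that sum, while Ptprc, the defining marker, stayed below 0.1 FPKM. By limma 0 of the 9 tested genes of the list were called in M-LMSCs against A-LMSCs, where 9 were higher at an unadjusted p under 0.05, and 8 were called with the replicate block. Against PM-LMSCs 0 were called, 9 were higher at an unadjusted p under 0.05 and 3 were called with the block. Over all genes, in either direction, 14.6% and 8.94% had an unadjusted p under 0.05 in these comparisons. With the block 3.92% and 0.418% were called. Within a stage the replicate with the higher sum was replicate 1 throughout, as for Ly6a, whereas Vcam1 was higher in replicate 2. The part of such cells in the levels of Ly6a and Vcam1 was not tested, and in bulk RNA fewer cells of a type cannot be told apart from less RNA per cell.

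**Figure D4:**
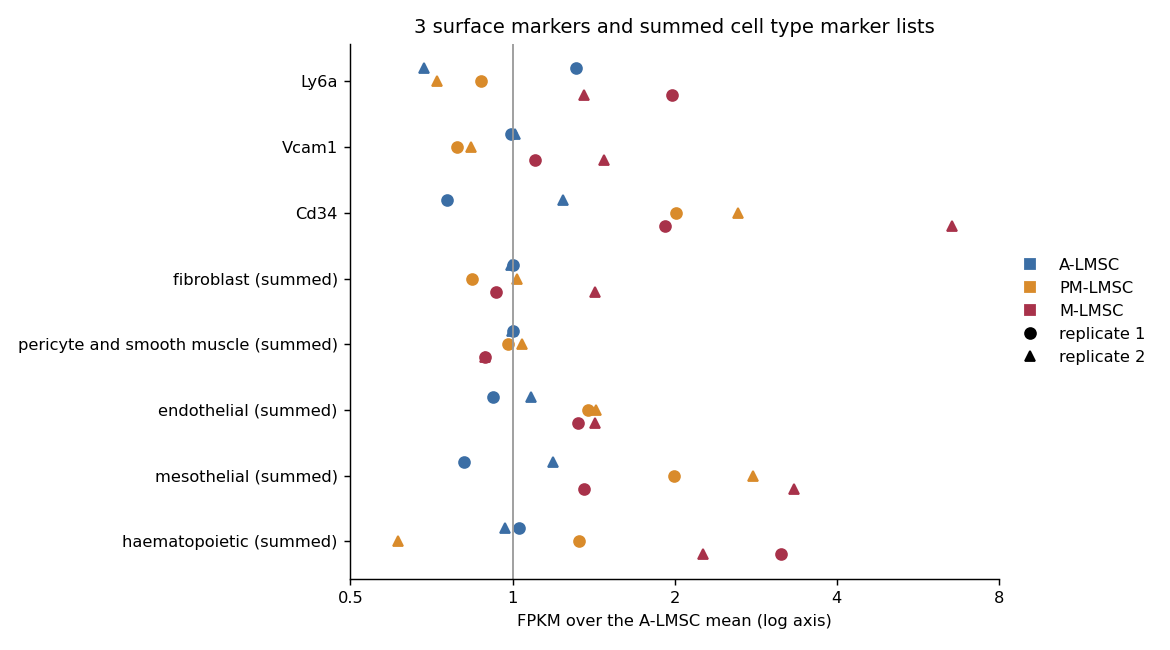
Level of Ly6a, Vcam1 and Cd34 and summed FPKM of 5 cell type marker lists in each library, divided by the mean of the 2 A-LMSC libraries (log axis; color for stage, circle for replicate 1, triangle for replicate 2). The hematopoietic sum is 3.15 and 2.26 times the A-LMSC mean in M-LMSCs, the mesothelial sum is higher in replicate 2 than in replicate 1 at every stage, and Cd34 reaches 6.56 times in M-LMSC replicate 2.

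Cd34 (ENSMUSG00000016494, chromosome 1 from 194938819 to 194961279, plus strand), whose protein the study described as absent from the cultured cells, was at 0.283 and 0.465 FPKM at stage A, 0.750 and 0.979 at stage PM, and 0.719 and 2.45 at stage M. Both A-LMSC libraries were the lowest of the 6 (a pattern not counted over all genes), and M-LMSC replicate 2 lay far above the other 5. The mean was 2.31 times that of A-LMSCs in PM-LMSCs and 4.24 times in M-LMSCs, but without M-LMSC replicate 2 the latter was 1.92 times. On its longest annotated transcript of 3063 bases these values rested on about 18 to 125 fragments per library. If FPKM used all exons, 7290 bases, the number was larger. Cd34 averaged under 1 FPKM and was left out of the tests above, and with no filter on low values its log2 fold change was 0.44 in PM-LMSCs (interval -0.40 to 1.29, adjusted p = 0.882 from limma), and 0.83 at stage M (interval -0.02 to 1.67, adjusted p = 0.447 from limma). Its exons overlap those of Gm16897 on the opposite strand by 148 bases. Cd34 was higher in replicate 2 at each stage, and so was the sum of 13 mesothelial genes, led by Upk1b, at 131 and 191 FPKM at stage A, 320 and 450 at stage PM, and 219 and 537 at stage M. Replicate 2 was higher at all 3 stages in 21.2% of all tested genes. Of the 12 mesothelial genes tested, limma called 0 in PM-LMSCs against A-LMSCs (9 higher at an unadjusted p under 0.05, and 4 called with the block) and in M-LMSCs it called 1, the keratin gene Krt19, which fell (log2 fold change -1.53, adjusted p = 0.0395 from limma). With the block 8 were called higher and 1 lower in M-LMSCs. Over all genes, in either direction, 6.53% had an unadjusted p under 0.05 in PM-LMSCs against A-LMSCs. With the block 0.292% of all genes were called there, and 3.92% in M-LMSCs against A-LMSCs. Whether the mesothelial genes and Cd34 share a source was not tested.

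For Cd44, Nes and Nt5e, as for Alcam, no gap between stage means exceeded the largest gap between the replicates of a stage. Cd44 (ENSMUSG00000005087, chromosome 2 from 102811141 to 102901665, minus strand), the other antigen of the tissue gate, was at 12.7 and 14.1 FPKM at stage A, 15.6 and 14.0 at stage PM, and 14.9 and 12.7 at stage M. Its highest library was 1.24 times its lowest, the narrowest range among the 10 genes. The stages overlapped in every comparison, with a log2 fold change of 0.14 in PM-LMSCs (interval -0.17 to 0.45, adjusted p = 0.889 from limma), and 0.04 at stage M (interval -0.27 to 0.35, adjusted p = 0.893 from limma). The interval for M-LMSCs against PM-LMSCs was -0.41 to 0.21, so that a change of 1 on the log2 scale lay outside all of these intervals. Without A-LMSC replicate 1 the log2 fold change in PM-LMSCs was 0.06.

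Nes (ENSMUSG00000004891, chromosome 3 from 87971078 to 87980451, plus strand), whose protein the study used to locate LMSCs, was at 21 and 22.2 FPKM at stage A, 21.6 and 17.8 at stage PM, and 25 and 14.6 at stage M. The M-LMSC libraries were the highest and the lowest of the 6, and differed from each other by 0.73 on the log2 scale, while the stage means differed by at most 0.17. Its log2 fold change was -0.13 in PM-LMSCs (interval -0.70 to 0.44) and -0.17 in M-LMSCs (interval -0.74 to 0.40), with adjusted p-values of 0.937 and 0.752 from limma. Nt5e (ENSMUSG00000032420, chromosome 9 from 88327197 to 88372092, plus strand) was at 1.66 and 2.98 FPKM at stage A, 2.89 and 2.35 at stage PM, and 2.73 and 3.68 at stage M. The A-LMSC libraries spanned those of PM-LMSCs, and the log2 fold change was 0.15 in PM-LMSCs (interval -0.38 to 0.68) and 0.36 in M-LMSCs (interval -0.17 to 0.89, adjusted p = 0.474 from limma). A difference between the stage means larger than the largest gap between replicates was seen in 5 of the 9 tested markers and in 36.9% of all tested genes.

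Genes that act with the markers were read from the same fit. Beside the counts of this and the later lists, 6.53%, 14.6% and 8.94% of all genes tested had an unadjusted p under 0.05. With the block 0.292%, 3.92% and 0.418% of all genes were called. Of 15 ligands and ligand-handling enzymes, 11 were tested and 0 were called in any comparison, with 2, 0 and 3 of them at an unadjusted p under 0.05. Cemip, which degrades hyaluronan, the ligand of CD44, was at 144 to 179 FPKM in the 6 libraries. Tgfb3, a ligand of the receptor complex that endoglin joins, was at 107 and 124 FPKM at stage A, 147 and 144 at stage PM, and 104 and 125 at stage M, with a log2 fold change of 0.34 in PM-LMSCs (adjusted p = 0.745 from limma). Lgals3, a galectin reported to bind MCAM, was at 78.8 to 118 FPKM, and Spp1, osteopontin, which binds CD44 and integrins, at 31.2 to 54.8 FPKM.

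Of 21 receptors and partners, 15 were tested and 0 were called, with 3, 7 and 6 at an unadjusted p under 0.05 and, with the block, 1 called higher in PM-LMSCs and 1 in M-LMSCs against A-LMSCs. In both cases it was Ezr, ezrin, which links CD44 to the actin cytoskeleton, and which was at 27.6 and 46.8 FPKM at stage A, 81.9 and 116 at stage PM, and 53.3 and 131 at stage M (adjusted p = 0.0417 and 0.0239 from limma with the block, and 0.566 and 0.292 without it). Ezr, like the mesothelial sum, was higher in replicate 2 at each stage, which held for 21.2% of all tested genes. Its relative Msn, moesin, was at 182, 196, 242, 192, 254 and 224 FPKM in the same order, with a log2 fold change of 0.33 in M-LMSCs against A-LMSCs (adjusted p = 0.356 from limma). Itgb5, an integrin chain that pairs with alphaV, was at 117 to 152 FPKM, and Sdc4, a syndecan, at 88.5 to 129 FPKM. Itga4, the chain of the leukocyte receptor for VCAM1, was at 0.0309 to 0.116 FPKM in these cultures.

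Around Nt5e, 6 of 15 genes of the adenosine pathway were tested and 0 were called, with 1, 3 and 1 at an unadjusted p under 0.05. Adora2b, the low-affinity adenosine receptor, was at 13.2 and 15.2 FPKM at stage A, 8.99 and 8.22 at stage PM, and 9.60 and 10.8 at stage M. Both A-LMSC libraries were the highest of the 6, as in 10.7% of all tested genes (log2 fold change -0.66 in PM-LMSCs, adjusted p = 0.324 from limma, and -0.44 at stage M, adjusted p = 0.210 from limma). The enzymes that remove adenosine, Adk and Ada, were at 41.7 to 62.9 FPKM and 10.2 to 12.8 FPKM, and the transporter Slc29a1 at 2.65 to 5.40 FPKM. Entpd1 (CD39), which supplies AMP to CD73, was below 0.5 FPKM in all 6 libraries.

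Among 6 intermediate filament genes that can accompany nestin, 3 were tested and 0 were called, with 1, 0 and 1 at an unadjusted p under 0.05. Vim, vimentin, was at 296 to 365 FPKM and Lmna, lamin A/C, at 79.5 to 129 FPKM. Des, the muscle filament desmin, was at 153 FPKM or less in both stage A libraries, 311 and 299 at stage PM, and 147 and 225 at stage M, so that the PM-LMSC libraries were highest (log2 fold change against A-LMSCs 1.05, interval 0.57 to 1.52, adjusted p = 0.315 from limma). Of all tested genes, 4.26% were highest in both PM-LMSC libraries. The 12 genes of the pericyte and smooth muscle list, which holds Des, summed to 9807 and 9769 FPKM at stage A, 9601 and 10160 at stage PM, and 8711 and 8696 at stage M. Of its 9 tested genes 0 were called, with 3, 2 and 3 at an unadjusted p under 0.05, and with the block Cspg4 was called lower in M-LMSCs in both comparisons.

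Of 15 genes of the Ly6 family, 4 were tested and 0 were called, with 1, 1 and 2 at an unadjusted p under 0.05. Lynx1 was at 12.5 to 17.3 FPKM and Ly6e at 2.29 to 3.52 FPKM. Ly6k was at 0.265 and 0.757 FPKM at stage A, 1.12 and 1.81 at stage PM, and 1.73 and 2.79 at stage M, and was called in M-LMSCs against A-LMSCs with the block (log2 fold change 1.11, adjusted p = 0.0127 from limma, and 0.123 without it). Its mean of 1.41 FPKM passed the filter on low values through the later stages, so that call was not independent of the filter. Ly6c1, at 0.278 to 0.991 FPKM, was too low to test, and 6 genes of the family were listed at 0 in all 6 libraries.

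The last lists were other stromal surface genes and genes that MSC cultures should lack. Of 22 other stromal surface genes, 19 were tested and 0 were called, with 6, 4 and 5 at an unadjusted p under 0.05, and their summed level stayed between 2321 and 2532 FPKM. Cd63, a tetraspanin, was the most abundant, at 807 FPKM or more in each library, Itga5, the fibronectin receptor chain, at 292 to 404 FPKM and Cd151 at 203 to 317 FPKM. With the block, 1 gene was called higher in PM-LMSCs against A-LMSCs (Bst1), 3 higher (Anpep, Cd200 and Bst1) and 1 lower (Cspg4) in M-LMSCs against A-LMSCs, and 1 lower (Cspg4) in M-LMSCs against PM-LMSCs. Anpep (CD13), a peptidase of fibroblasts and myeloid cells, was at 0.747 and 0.872 FPKM at stage A, 1.16 and 0.832 at stage PM, and 2.53 and 3.15 at stage M (log2 fold change against A-LMSCs 1.08, adjusted p = 0.0735 from limma, and 0.0171 with the block). Its mean of 1.55 FPKM passed the filter on low values through stage M, where it was highest. Its call with the block was therefore not independent of that filter. Cspg4 (NG2), a proteoglycan of pericytes, was at 13.4, 14.1, 14.7, 14.9, 6.22 and 8.59 FPKM in the same order, so that the M-LMSC libraries were lowest (-0.82 against A-LMSCs, adjusted p = 0.106 from limma, and 0.0250 with the block). The share of all genes lowest in both M-LMSC libraries was not counted. Bst1 and Cd200 were each higher in all 4 later-stage libraries than in both A-LMSC libraries. The share of all genes with that joint pattern was not counted. Taken singly, 19.6% of all tested genes lay above both A-LMSC libraries in PM-LMSCs and 27.1% in M-LMSCs.

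Of 18 genes that MSC cultures should lack, 17 were listed and 13 were below 1 FPKM in all 6 libraries, among them Ly6g and Ly6c2, which were listed at 0 in each. The 2 that could be tested were Cd14, a coreceptor for bacterial lipopolysaccharide, and Fcgr3, an antibody receptor of myeloid cells. Cd14 was at 5.13 and 4.76 FPKM at stage A, 5.77 and 5.45 at stage PM, and 8.23 and 10.1 at stage M (log2 fold change against A-LMSCs 0.77, adjusted p = 0.0981 from limma, and 0.0275 with the block). Fcgr3 was at 0.915, 1.27, 1.87, 0.871, 3.79 and 2.42 FPKM in the same order (0.96, adjusted p = 0.172 from limma). Both M-LMSC libraries were highest for each of these genes, as for 11.8% of all tested genes. Of 13 epithelial and tumor markers, 9 were below 1 FPKM in all libraries. Of the 2 tested, 0 were highest in both M-LMSC libraries, against 11.8% of all tested genes, while 7 of the 11 too low to test were highest there, against 9.72% of the 11419 genes that were too low to test and above 0 in some library. Epcam, an epithelial adhesion molecule, was listed at 0 in the A- and PM-LMSC libraries and was at 0.326 and 0.473 FPKM at stage M. The sum of the list was 3.74 and 6.95 FPKM at stage A, 10.7 and 18.8 at stage PM, and 11.5 and 24.6 at stage M, and Krt18, which mesothelial cells also express, made up 48.2% of it. The part of epithelial or tumor cells in the levels of the surface markers that were higher in M-LMSCs was not tested. The 2 tested genes of that list were not called by limma, were higher at an unadjusted p under 0.05 in PM-LMSCs and in M-LMSCs against A-LMSCs, and passed with the block in both.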

How the data were processed

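RNA of 6 LMSC cultures was sequenced, and the authors deposited FPKM values for each gene and library. The submitters' processing notes name TopHat2 2.0.9 and the build mm10, and the counting tool and its strand setting are not given in the sources used here. The table holds no counts, so no count test was run. Gene names repeated in 57 cases were read from the first identifier, and 34344 identifiers were found in GENCODE M21 (GRCm38), which gave coordinates and exon overlaps. Depth was estimated from genes with 1 annotated transcript, of whose low values 94.5% to 95.0% fell within 0.02 of a whole number of fragments, and depth limits the precision of genes near 1 FPKM. The fragment numbers use each gene's longest transcript and cover counting only. They are not upper limits, since the length behind the FPKM values is not given in the sources used here.

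Genes that averaged 1 FPKM or more were transformed as log2(FPKM + 1) and fitted with limma 3.58.1 (R 4.3.3, eBayes with trend) over all 6 libraries, with 1 mean per stage, as tested on simulated data. The filter used the mean over all 6 libraries, so a gene could enter the tests through the stage where it was highest. The threshold was an adjusted p of 0.05. Libraries with the same replicate number deviated together (correlations across genes of 0.238, 0.307 and 0.491 for the 3 pairs of stages), so the number was treated as pairing them and added as a block in an alternative. The labels state no link between libraries of the same number. The pairing was thus inferred from the same values that were tested, and p-values with the block depend on it. Other alternatives were a pseudocount of 0.1, no filter, quantile normalization, median centering, only the stages compared, the block with a correction for GC content and length, a log2 fold change of at least 1, and each library left out. Copies were searched with blastn 2.17.0 (95% identity over at least 200 bases). Markers and lists were chosen with earlier results of these data known. From each list the rule named genes past the threshold or the 4 most abundant tested genes, together with genes of the cytometry panel. Itga4, Entpd1, Ly6c1, Cdh5, Epcam, the genes called only with the block and the genes at 0 were named after their values were seen. Python 3.11.15 with numpy 2.4.6, pandas 2.3.3 and matplotlib 3.10.9 was used.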

Additional observations from a re-analysis of the deposited data

Results flagged for a closer look

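Vcam1 was the only tested marker for which both libraries of one later stage lay below both A-LMSC libraries and both libraries of the other lay above them. The difference between M-LMSCs and PM-LMSCs was tested directly, with a log2 fold change of 0.60 (adjusted p = 0.342 from limma, and 0.109 with the replicate block), so it did not pass the threshold. With each library left out in turn it ranged from 0.40 to 0.80. The order M above A above PM without overlap held for 1.78% of all genes tested. The values that raised the flag also fix the sign of this difference, so the test and the range are no independent support. Stages of 2 libraries are too small to test a single library as an outlier.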

How the results depend on the processing

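The number of surface markers called was 0 in each of the 3 comparisons under all 14 alternatives, also with the replicate block, which changed no call of a marker. In the main fit 0.0389%, 0.0681% and 0.0292% of all genes were called. A count of 0 among 9 markers was therefore likely in any case, and its constancy says little about stability. The number of genes called over the whole table moved more. For PM-LMSCs against A-LMSCs, limma called 4 genes, 1 with no filter on low values, 21 with only the stages compared, 30 with the replicate block and 6 with the block and a correction for GC content and length. For M-LMSCs against A-LMSCs it called 7, 3 with no filter, 1 with only the stages compared, 403 with the block and 332 with the block and that correction. For M-LMSCs against PM-LMSCs it called 3, 43 with the block and 7 with the block and that correction. Leaving out 1 library gave 1 to 28, 1 to 90 and 2 to 25 genes. Without M-LMSC replicate 1 or 2 there were 28 and 26 in the first comparison, 85 and 90 in the second, and 18 and 25 in the third, and without 1 A-LMSC or PM-LMSC library there were at most 2 in the first and 3 in the second.

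Of the log2 fold changes of single markers, 334 kept their direction and their side of the threshold and 17 changed sign, all of them uncalled. In M-LMSCs against A-LMSCs, the log2 fold change of Cd44 became -0.01 with median centering and -0.12 with the block and GC correction, which also gave -0.01 for Alcam. In M-LMSCs against PM-LMSCs the latter gave 0.01 for Nes and 0.00 for Eng. With the same sign but moved by over 1.5 times, it gave 0.06 for Cd44, 0.16 for Alcam and -0.44 for Vcam1 in PM-LMSCs against A-LMSCs, 0.36 for Eng, 0.18 for Vcam1 and -0.11 for Nes in M-LMSCs against A-LMSCs, and -0.18 for Cd44, -0.18 for Thy1, 0.13 for Nt5e and -0.17 for Alcam in M-LMSCs against PM-LMSCs. With 1 library left out, values for PM-LMSCs against A-LMSCs ranged from -0.54 to 0.15 for Ly6a, -0.14 to 0.44 for Nt5e and -0.27 to 0.00 for Nes, and without a change of sign from 0.18 to 0.44 for Eng and 0.06 to 0.21 for Cd44. For M-LMSCs against A-LMSCs they ranged from -0.07 to 0.15 for Cd44, -0.10 to 0.42 for Alcam and -0.53 to 0.20 for Nes, and without a change of sign from 0.13 to 0.38 for Thy1, 0.10 to 0.35 for Eng, 0.13 to 0.53 for Vcam1 and 0.07 to 0.65 for Nt5e. For M-LMSCs against PM-LMSCs they ranged from -0.40 to 0.33 for Nes, -0.20 to 0.01 for Cd44, -0.35 to 0.17 for Alcam and -0.38 to 0.13 for Mcam, and without a change of sign from -0.41 to -0.17 for Thy1, 0.05 to 0.37 for Nt5e and -0.15 to -0.02 for Eng. The cause was not tested. Depth limits Ly6a and Cd34 most, and 2 libraries per stage limit all results.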
